A study of Homo sapiens with 9 samples.

Results

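The pyruvate dehydrogenase kinases and phosphatases are 6 of the 20037 protein-coding genes considered here: the kinase genes PDK1, PDK2, PDK3 and PDK4 and the phosphatase genes PDP1 and PDP2. They were chosen by name from a family, and the family was taken up because PDK1 had 3 accessible regions called in hypoxic control cells and in neither other condition. That count of PDK1 is therefore a description and supports nothing. Each called region was given to the protein-coding gene whose RefSeq span it touched or lay nearest to, within 50 kb of an end of the span. The 6 genes received 27 of the 90962 normoxia regions, 23 of the 77451 hypoxia regions and 19 of the 62779 regions of hypoxia with ZHX2 knocked down, which merged into 30 of 97804 regions over the 3 lists.

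Accessible chromatin was profiled in T47D, an established human luminal breast cancer line, by ATAC-seq, an assay that uses a transposase to tag open DNA. The 9 samples formed 3 groups of 3: a control hairpin (shCtrl) in normoxia, shCtrl in hypoxia, and a hairpin against the zinc finger and homeobox factor ZHX2 (shZHX2) in hypoxia. Hairpins were delivered by lentivirus, with selection in hygromycin or puromycin. The oxygen level, the time in hypoxia and whether the lines were pools or clones are not stated in the labels, and there was no shZHX2 group in normoxia. One list of called regions per group was analysed, so the differences below carry no replicate error and no p-value. A region is called where the list of a group holds it, that is, where it passed the threshold the authors set. The read depth behind each list is unknown. Of 10 luminal markers, 9 had a region within 1 kb of a gene end in every list, ESR1 being the exception. Of 12 markers of blood, stroma, endothelium, liver and neuron 8 had one too, so calls at gene ends did not separate these cell types, and the part of other cells in the results was not tested.

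The pyruvate dehydrogenase complex turns pyruvate into acetyl-CoA in mitochondria and so sets how much glucose carbon enters the citric acid cycle. The 4 kinases switch the complex off by phosphorylating its E1 alpha subunit, and the phosphatases switch it back on. PDK1 is a well known target of the hypoxia-inducible factor HIF-1, PDK3 is also induced by hypoxia, PDK4 responds to fasting and fatty acids, and PDK2 is the widely expressed form. PDP1 is the calcium-stimulated phosphatase, and PDP2 is the calcium-insensitive form.

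The sequences before the annotated starts are shown first because a region lay at the start of each gene shown in every list. Each window is the 250 bases before a start, 5′ to 3′ on the strand of the gene, from RefSeq (GRCh38.p14). Capitals mark ACGTG and GCGTG, forms of the core of the hypoxia response element, on either strand, so that CACGT is a match on the opposite strand. PDK1 has annotated starts at 172555373 and 172556090. The windows shown are chr2:172555123-172555372 and chr2:172555840-172556089 for PDK1, chrX:24465036-24465285 for PDK3, chr7:95596517-95596766 for PDK4 (minus strand) and chr16:66880265-66880514 for PDP2, the others being on the plus strand.
PDK1 upstream start: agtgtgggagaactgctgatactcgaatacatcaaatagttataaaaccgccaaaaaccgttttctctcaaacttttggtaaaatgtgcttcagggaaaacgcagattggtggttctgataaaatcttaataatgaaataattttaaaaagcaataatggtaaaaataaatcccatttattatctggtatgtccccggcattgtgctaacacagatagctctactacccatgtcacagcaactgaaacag
PDK1 downstream start: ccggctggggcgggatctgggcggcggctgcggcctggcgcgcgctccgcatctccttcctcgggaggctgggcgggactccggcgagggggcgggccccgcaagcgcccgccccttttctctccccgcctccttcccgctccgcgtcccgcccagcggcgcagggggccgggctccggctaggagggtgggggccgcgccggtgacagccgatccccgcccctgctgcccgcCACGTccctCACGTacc
PDK3: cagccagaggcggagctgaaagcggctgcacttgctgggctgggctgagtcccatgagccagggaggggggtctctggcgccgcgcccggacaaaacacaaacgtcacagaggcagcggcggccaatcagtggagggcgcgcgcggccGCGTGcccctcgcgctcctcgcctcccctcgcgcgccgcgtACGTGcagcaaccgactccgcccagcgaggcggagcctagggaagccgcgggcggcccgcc
PDK4: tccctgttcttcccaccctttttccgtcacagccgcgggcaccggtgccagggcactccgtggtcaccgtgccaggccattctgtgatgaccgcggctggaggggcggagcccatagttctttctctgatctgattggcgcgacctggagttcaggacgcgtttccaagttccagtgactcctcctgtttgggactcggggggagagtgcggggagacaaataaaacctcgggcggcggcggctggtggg
PDP2: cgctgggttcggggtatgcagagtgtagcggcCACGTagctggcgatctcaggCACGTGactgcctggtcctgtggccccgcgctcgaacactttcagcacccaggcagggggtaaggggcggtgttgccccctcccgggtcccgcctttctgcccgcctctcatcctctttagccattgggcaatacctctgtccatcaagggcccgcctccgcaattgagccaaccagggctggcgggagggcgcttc

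The 2 windows of PDK1 differed in composition: 35.6% GC with 5 CpG before the upstream start, and 79.6% GC with 34 CpG before the downstream start. The downstream window held 2 ACGTG matches on the opposite strand, whose last bases lie 13 and 4 bases before the start. The upstream window held none. PDK3 had 1 ACGTG and 1 GCGTG match, 57 and 98 bases before its start. PDP2 had 3 ACGTG matches, of which those ending 193 and 192 bases before the start are the opposite strands of 1 E-box (CACGTG). PDK4 had none. Of the 3 starts of PDK2, the start at 50095351 had 1 GCGTG match and 1 E-box, and the other two had no match.

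In all, 4 of the 8 windows of 5 genes held ACGTG or GCGTG, and among the same windows of all 35116 annotated starts 43.2% did. ACGTG was present in 18.5% of all windows, GCGTG in 32.2% and CACGTG in 6.34%. Searched on both strands, TGANTCA (AP-1, in 6.57% of all windows), AAGGTCA (estrogen-related receptor, 3.44%) and TGTTTAC (forkhead, 2.98%) were in no window of these genes. A match describes letters and not a bound site.

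Every one of the 6 genes had an accessible region at 1 end of its span in all 3 lists, and each of these 6 merged regions was called in normoxia, in hypoxia and with shZHX2. Among all protein-coding genes, 74.2% had a region within 1 kb of a gene end in normoxia, 72.3% in hypoxia and 70.0% with shZHX2 (Wilson 95% intervals 73.5 to 74.8, 71.7 to 72.9 and 69.4 to 70.7, which cover counting error only, here and below). For the 5 genes with annotated starts in the promoter table, 6 of 8 starts lay inside a region in each list, against 50.1%, 48.4% and 47.3% of all starts. The uncovered starts were the upstream start of PDK1, which lay 59, 64 and 52 bp outside the region in normoxia, hypoxia and with shZHX2, and the start of PDK2 at 50095695, which lay 134, 138 and 156 bp outside.

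A further gene end differed: a region 681 bp beyond the higher-coordinate end of PDK2, at chr17:50112833-50113075 with a fold of 2.19, was called in normoxia and in neither other list. It was given to the gene SAMD14 and so is not among the 30. Among the 30, the regions that differed lay away from gene ends. Of the 24 merged regions away from gene ends, 12 were called in all 3 lists and 12 in 1 or 2. The same split by place was not computed for the whole series, so it is not read as a trait of the family. Over all 30 merged regions, 18 (60%) were called in all lists, against 58.4% of the whole series. Another 6 were called in normoxia alone (20%, whole series 16.7%), 3 in hypoxia with shCtrl alone (10%, whole series 4.34%), 2 in both shCtrl lists (6.67%, whole series 15.3%) and 1 in normoxia and with shZHX2 (3.33%, whole series 2.44%). No merged region of the 30 was called with shZHX2 alone (whole series 2.05%) or in both hypoxia lists without normoxia (whole series 0.75%). All 3 of the hypoxia shCtrl regions belonged to PDK1, for which PDK1 had been picked. The other 5 genes had 0 of 23.

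**Figure D1:**
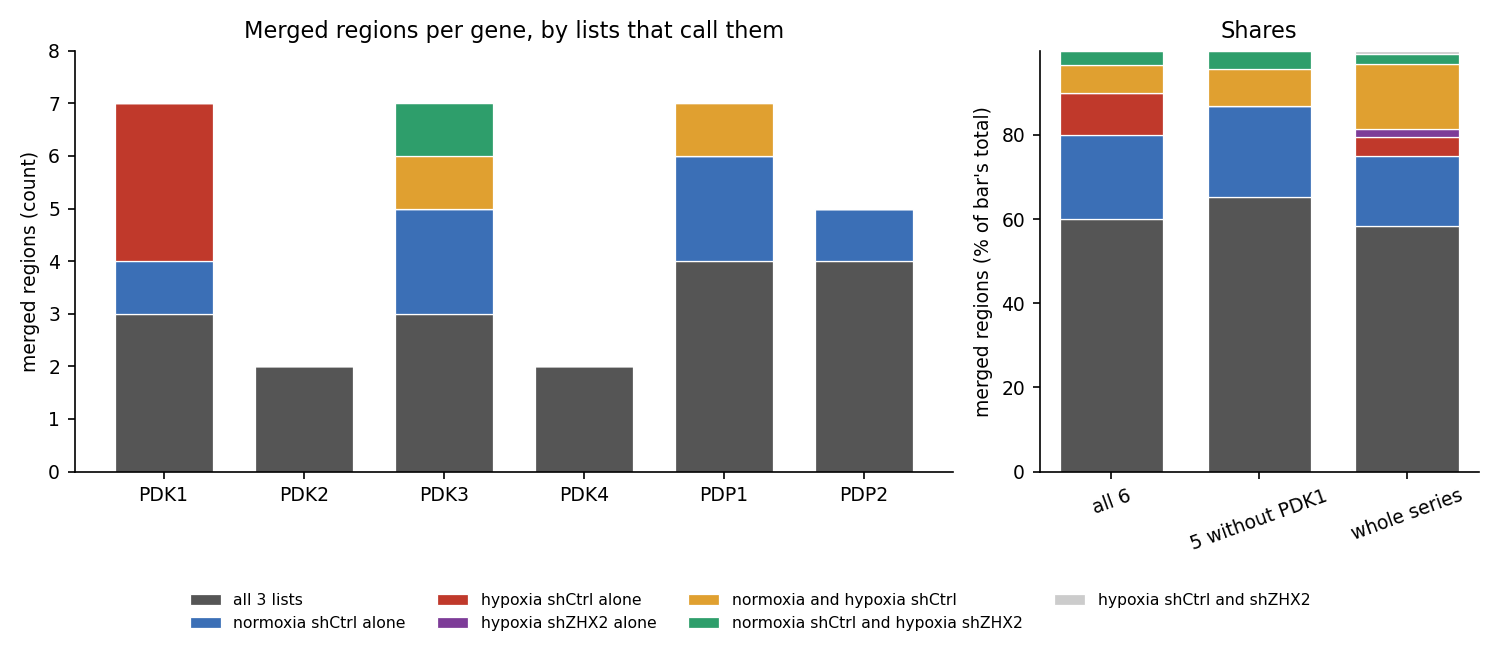
Left, the number of merged regions of each gene, coloured by the lists that call them; right, the same as a percentage for all 6 genes, for the 5 genes without PDK1 and for the whole series. PDK1 has the 3 regions called in hypoxia shCtrl alone, PDK2 and PDK4 have 2 regions each that all lists call, and the 5 genes without PDK1 have 15 of 23 in all lists.

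PDK1, the kinase that HIF-1 is known to induce, spans chr2:172555373-172724312, which is 168940 bp in RefSeq. Its region over the downstream start was 1225 bp wide in normoxia with a fold enrichment of 7.14, 1204 bp with 7.0 in hypoxia, and 1204 bp with 7.21 with shZHX2. These folds over local background are the authors' own values and describe a region within its list. Its score percentiles, the rank of its score within each list, were 94.6, 93.5 and 92.8. The start of PDK1 was thus among the strongest 10% of regions in each list, in normoxia as in hypoxia.

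The PDK1 regions called in hypoxia with shCtrl and in neither other list lay at chr2:172686348-172686631, chr2:172688985-172689194 and chr2:172693129-172693519. They were 284, 210 and 391 bp wide, with folds of 4.19, 3.13 and 3.88 and score percentiles of 39.1, 12.7 and 33.4. The 3 fell within 7172 bp of one another, inside the RefSeq span and 130258, 132895 and 137039 bp from the nearer annotated start of PDK1. The gene table gives no exons, so whether they are exonic or intronic is not stated here. The nearest regions called in normoxia lay 17522, 14959 and 10634 bp away, and the nearest with shZHX2 17695, 15132 and 10807 bp away. In both of these lists the nearest call was thus more than 10 kb from each.

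In hypoxia, 3 of 6 PDK1 regions were not called in normoxia, where 6.44% of all hypoxia regions were not (95% interval 6.26 to 6.61). The same 3 were not called with shZHX2, where 25.0% of all hypoxia regions were not (24.7 to 25.4). Both comparisons use the hypoxia shCtrl list. Called in neither other list were 5.49% of all hypoxia regions. By score decile this share was 17.1% in decile 2, which holds the middle PDK1 region, and 4.23% in decile 4, which holds the other two. Summed over the 6 PDK1 regions, the rates of their deciles give 0.264 regions called in neither other list. The 3 found are those for which the gene was picked, so the values are a description and support nothing.

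Most of the PDK1 span held no call. In normoxia there was a gap of 147496 bp between the region at the start and the next one, and in hypoxia the gap was 129707 bp. Farther along lay 2 regions called in all lists, with centres 148 and 155 kb from the downstream start. The one at chr2:172704153-172704755 in normoxia had a fold of 6.21 and was 603 bp wide. The same region had a fold of 5.81 over 481 bp in hypoxia and 3.83 over 352 bp with shZHX2. Its score percentiles were 62.9, 59.4 and 22.8, in lists that differ in length. Its neighbour, at chr2:172710540-172710955 in normoxia, had folds of 5.50, 5.46 and 5.37 and widths of 416, 404 and 393 bp. The first of the pair had its lowest fold and smallest width in the shZHX2 list, and the second had nearly the same values in each.

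One PDK1 region was called in normoxia alone, at chr2:172545844-172546105. It lay 9268 bp before the span, inside the span of the antisense gene PDK1-AS1, and had a fold of 3.84 and a score percentile of 33.2. It was 1 of the 4 normoxia regions of PDK1, and 20.6% of all normoxia regions were not called in hypoxia. From the score deciles of these 4 regions 0.259 would be missing. In the other direction stood the 3 hypoxia regions for which PDK1 was picked.

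**Figure D2:**
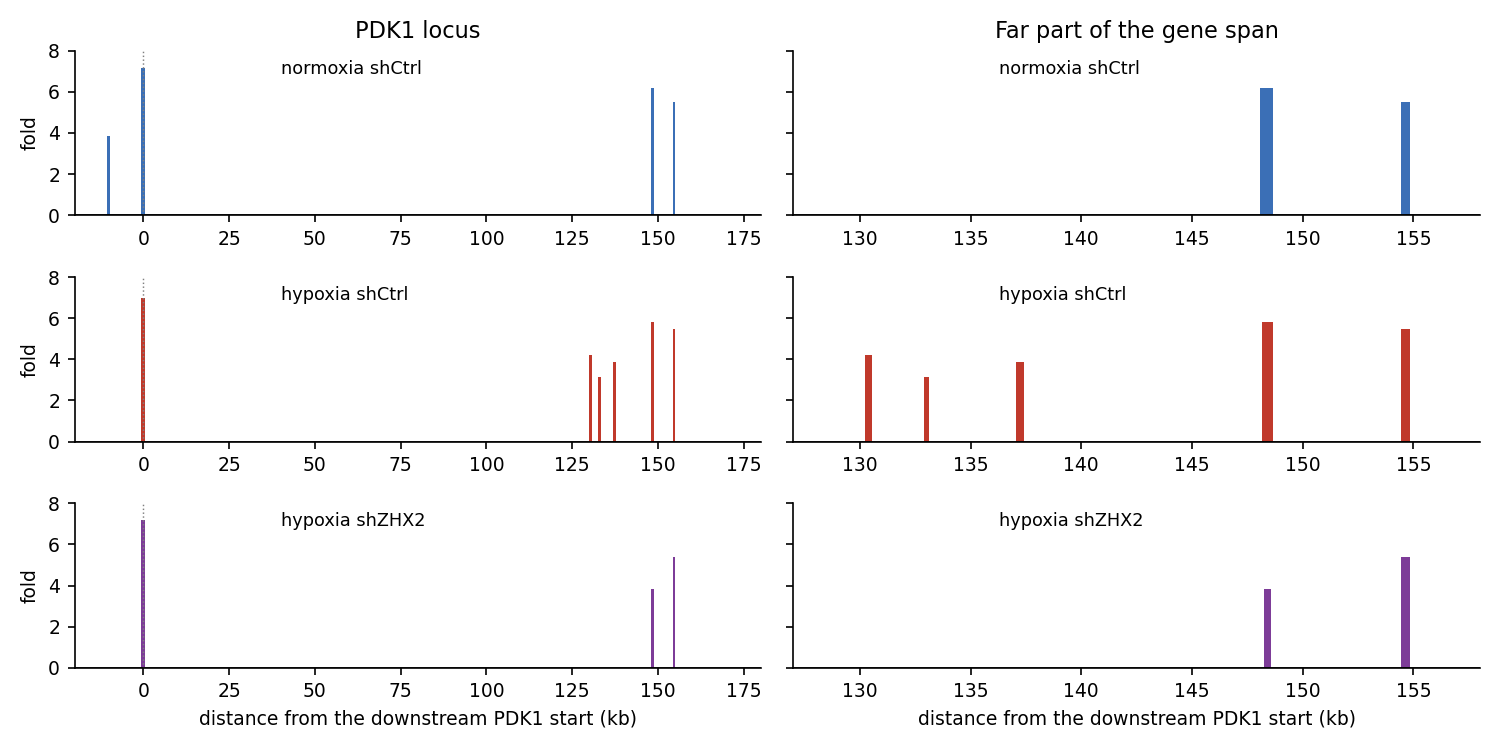
Called regions of PDK1 in the 3 lists as bars, with the authors' fold enrichment as height, against distance from the downstream start in kb (dotted line at 0); bars narrower than a minimum width are drawn at that width. The right panels enlarge the far part of the span, where the hypoxia shCtrl list has 3 bars with folds of 3.13 to 4.19 that the other lists lack, beside 2 regions that all lists call.

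Which gene the 3 regions are given to depends on the rule. RAPGEF4, which encodes a cAMP-regulated exchange factor for Rap proteins, begins beyond the PDK1 span, and its nearest annotated start lay 49214, 46651 and 42326 bp from the 3 regions, closer than the starts of PDK1. By nearest annotated start of a protein-coding gene all 3 went to RAPGEF4, and so did the 2 far regions that every list calls. PDK1 then kept 1 hypoxia region, that over its start. The long noncoding RNA gene RAPGEF4-AS1 lay 36558, 33995 and 29670 bp away, and a small nucleolar RNA gene, LOC124906146, 4668, 2105 and 1727 bp away. RAPGEF4 itself had 13 normoxia, 12 hypoxia and 8 shZHX2 regions, and 1 of its 12 hypoxia regions was called in neither other list. The 3 regions also came from the weaker 50% of the hypoxia list by score, and among the 3 stronger PDK1 regions none was missing from another list.

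Of all protein-coding genes, 0.574% (115 genes) had at least 3 regions called in hypoxia shCtrl and in neither other list, and 11.9% had at least 1. Among the 846 genes with 6 hypoxia regions, as PDK1 had, 210 had at least 1 and 3 genes had at least 3, PDK1 included. The genes with most such regions were CDH4 with 9 of 41 hypoxia regions, SDK1 with 8 of 35, and CDH13, DLGAP2, GRIK4, NRXN3, OPCML, PTPRT, RBFOX1 and TMEM132B with 6 of 12 to 41 regions each. These 10 genes spanned 475992 to 2473620 bp, all longer than PDK1. Of the 115 genes, 82 had a span longer than that of PDK1. In 14 of the 115 genes at least 50% of the hypoxia regions were of this kind, PDK1 with 3 of 6 and PTPRT with 6 of 12 among them. PDK1 was picked for its count of such regions, so its place among all genes is a description and supports nothing.

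PDK2, the widely expressed kinase, lies at chr17:50094737-50112152 and had 2 regions in each list, all shared. The region over its first 2 annotated starts had folds of 6.28, 6.38 and 6.68 in normoxia, hypoxia and with shZHX2, at score percentiles of 97.1, 96.3 and 96.1. It was 1279, 1275 and 1257 bp wide and began at the same base, 50094283, in each list. The second region, inside the gene and overlapping PDK2-AS1, had folds of 3.14, 3.31 and 2.86. Its score percentiles were 26.2 and 30.7 in the shCtrl lists and 1.34 with shZHX2, so it was among the weakest calls of the shZHX2 list. PDK2 sits among close neighbours: 15 of 17 normoxia regions within 50 kb were given to other genes, as were 12 of 14 in hypoxia and 11 of 13 with shZHX2.

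PDK3, a kinase that hypoxia is known to induce, lies at chrX:24465286-24550466 and had 7 normoxia, 4 hypoxia and 4 shZHX2 regions. Its start had folds of 10.1, 9.80 and 9.34 in the 3 lists, the highest of the 6 gene-end regions in each. Inside the gene, regions centred 29 and 33 kb from the start were called in all lists, with folds of 3.93, 3.55 and 3.93 at the first and 4.59, 4.23 and 5.69 at the second. The start and these 2 regions were called in every list, and the 4 other regions were not.

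Of the 7 PDK3 regions of normoxia, 3 were not called in hypoxia, where 20.6% of all normoxia regions were not (95% interval 20.4 to 20.9). From the score deciles of these 7 regions 2.49 would be missing. Those at chrX:24479908-24480230 and chrX:24491791-24492063 had folds of 2.81 and 2.56 and were called in normoxia alone. That at chrX:24515492-24515691 had a fold of 3.02 and was called again with shZHX2, at chrX:24515485-24515684 with a fold of 3.61. It was the only shZHX2 region of the 6 genes that was missing from the hypoxia shCtrl list, 1 of 19, where 7.11% of all shZHX2 regions were missing. The PDK3 region 38582 bp before the span was called in both shCtrl lists, with folds of 4.12 and 3.16, and not with shZHX2. All 4 hypoxia regions of PDK3 were called in normoxia.

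PDK4, the kinase of the fasting response, lies at chr7:95583499-95596516 on the minus strand and had 2 regions in each list, all shared. Its start had folds of 6.87, 6.87 and 7.51 in normoxia, hypoxia and with shZHX2. It had the lowest score percentile of the 6 gene-end regions in each list, 74.1, 72.2 and 67.3, with widths of 1143, 1100 and 1052 bp. The second region, about 13 kb before the start and inside the span of PDK4-AS1, had folds of 4.52, 5.52 and 5.36. Both regions of PDK4 were thus called in every list. From their score deciles 0.0951 normoxia regions would be missing in hypoxia and 0.00478 hypoxia regions in normoxia, so keeping both lay near the background.

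PDP1, the calcium-stimulated phosphatase, lies on chromosome 8 from 93916923 to 93926068 and had 7 normoxia, 5 hypoxia and 4 shZHX2 regions. The region over its lower-coordinate end had folds of 5.64, 5.35 and 5.20 and was the widest gene-end region in each list, at 1616, 1692 and 1742 bp. Beyond the other end stood a group of distal regions. Those at 93960911 to 93961400 and 93975050 to 93975556 in normoxia, 34843 and 48982 bp from the span, had folds of 8.35 and 9.23 there, 6.93 and 9.25 in hypoxia, and 9.50 and 10.4 with shZHX2. Both were higher in fold than the gene end in all lists. Another distal region, 29167 bp away in normoxia, had folds of 3.97, 4.49 and 4.76.

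The PDP1 regions that differed were weak ones. Called in normoxia alone were the regions at 93894298 to 93894498 and 93936022 to 93936226, with folds of 2.81 and 2.93 and score percentiles of 2.93 and 6.40. The region at 93968995 to 93969453 had a fold of 3.87 in normoxia and 2.87 in hypoxia, with score percentiles of 34.7 and 4.55, and was not called with shZHX2. PDP1 was also the gene where the 50 kb limit mattered: the strong region 48982 bp away was just inside, and the next, 56970 bp away at 93983038 to 93983460 with a normoxia fold of 7.47, was just outside. That outer region was called in hypoxia with a fold of 6.31 and with shZHX2 with 4.86.

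PDP2, the other phosphatase, lies at chr16:66880515-66891101 and had 5 regions in normoxia and 4 in each hypoxia list. Its start had folds of 6.64, 6.39 and 6.71. Regions 12261 bp before the span and 3851 bp beyond it in normoxia had folds of 9.91 and 8.14 in normoxia, 9.75 and 9.28 in hypoxia, and 10.2 and 10.1 with shZHX2. Both were thus higher in fold than the start in each list. Another shared region lay 5444 bp before the start in normoxia and overlapped LOC124903699, as did the one 12261 bp away. The region that differed, at chr16:66886509-66886753 inside the gene, was called in normoxia alone with a fold of 3.20 and a score percentile of 15.1.

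**Figure D3:**
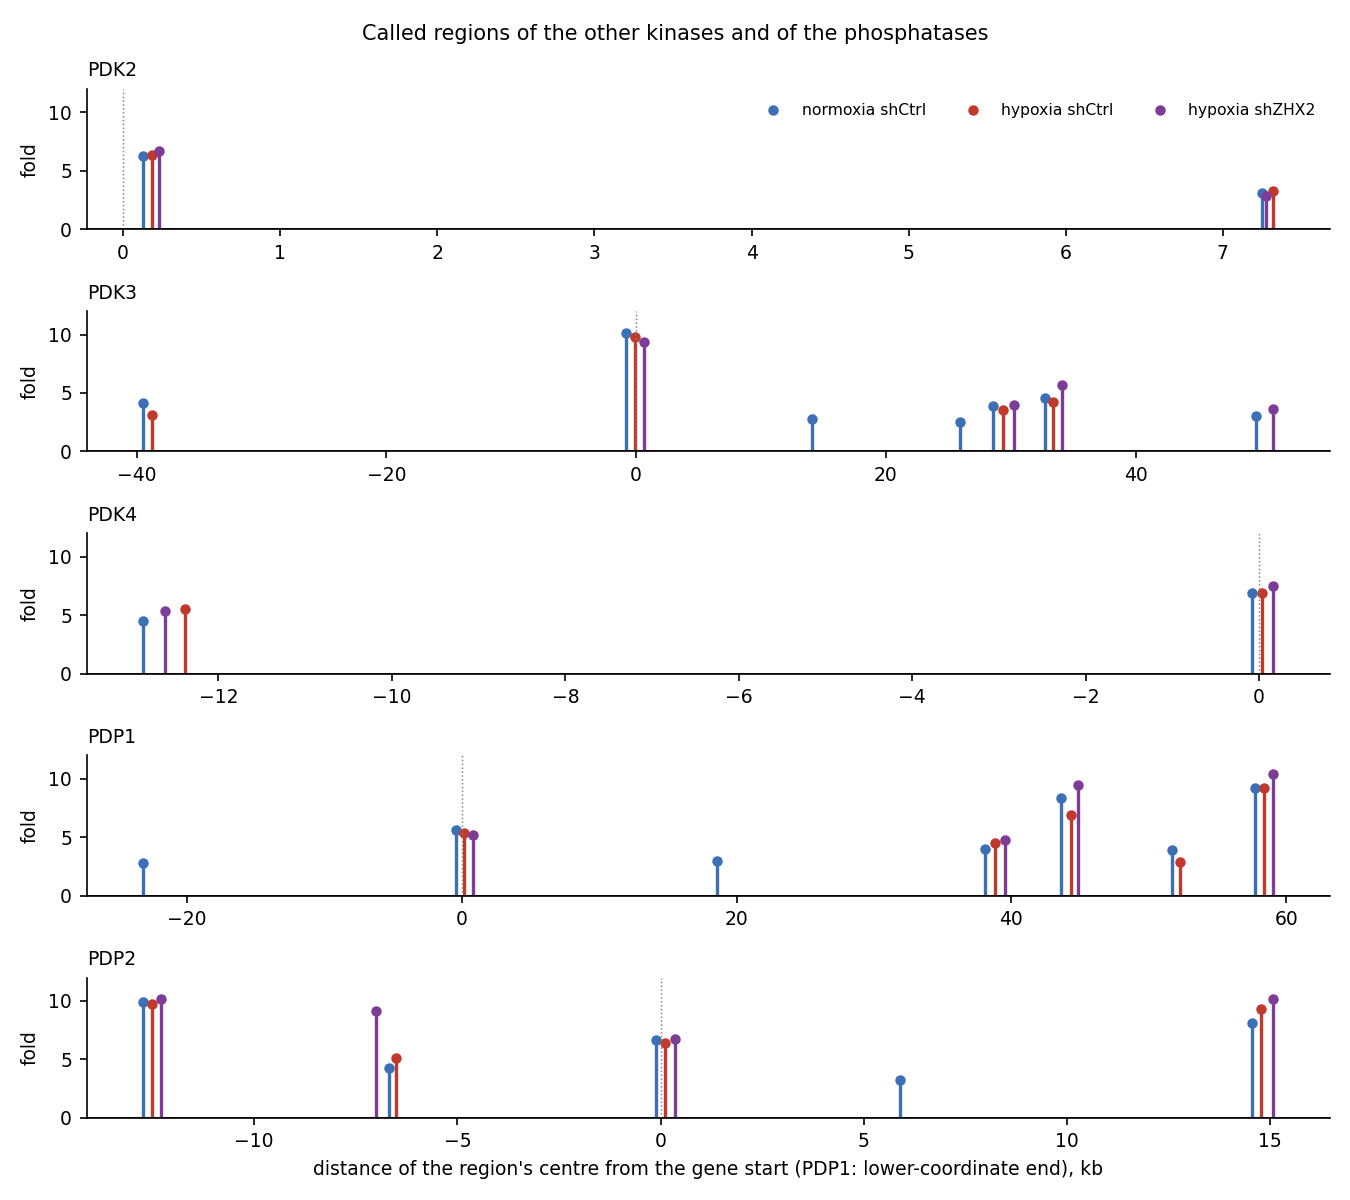
Called regions of PDK2, PDK3, PDK4, PDP1 and PDP2, with the authors' fold enrichment as height, against the distance of the region's centre from the gene start in kb (from the lower-coordinate end for PDP1); the 3 lists are set slightly apart sideways so that they do not cover one another. PDK2 and PDK4 show their regions in all 3 colours, and the regions of PDK3, PDP1 and PDP2 that normoxia alone calls have folds of 2.56 to 3.20.

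Hypoxia was set against normoxia to see which regions of the family were called in 1 list and not in the other. Over the 6 genes, 7 of 27 normoxia regions were not called in hypoxia, at PDK3 (3), PDP1 (2), PDK1 (1) and PDP2 (1), and 5.61 would be missing from their score deciles. In the other direction 3 of 23 hypoxia regions were not called in normoxia, all at PDK1, where the score deciles of the 23 give 0.918. PDK1 was picked for these 3, so setting them beside 0.918 is a description and supports nothing. Without PDK1 the counts in the first and the other direction were 6 of 23 (5.35 from score) and 0 of 17 (0.599 from score). Among the kinases 4 of 15 normoxia regions were not called in hypoxia (3.24 from score), and among the phosphatases 3 of 12 (2.37 from score), beside the 20.6% of all normoxia regions. The counts of normoxia regions not called thus lay near those given by score. With the 3 lists trimmed to equal length by score, 3 of 20 normoxia regions of the family were not called in hypoxia (11.0% of all) and 3 of 20 hypoxia regions not in normoxia (10.7% of all). With trimming by fold these were 2 of 20 (12.6% of all) and 4 of 22 (12.4% of all), so the larger count in normoxia was not seen in lists of equal length. Set against shZHX2, 8 of 27 normoxia regions were not called (34.5% of all normoxia regions) and 0 of 19 shZHX2 regions were not called in normoxia (4.39% of all shZHX2 regions), a contrast in which oxygen and hairpin both differ. Called in normoxia and in neither other list were 6 of 27, against 18.0% of all normoxia regions.

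The knockdown was set against shCtrl in hypoxia to see which hypoxia regions of the family were also called with shZHX2. Whether a site needs ZHX2 was not tested. Of the 23 hypoxia regions, 5 were not called with shZHX2, beside 25.0% of all hypoxia regions. They were the 3 for which PDK1 was picked, the region before PDK3 and the distal PDP1 region at 93969101 to 93969346. From score 4.04 would be missing, and without PDK1 it was 2 of 17, with 2.55 from score. PDK2, PDK4 and PDP2 kept a call at every hypoxia region with shZHX2. From score 0.352, 0.0844 and 0.00155 of their regions would be missing, so keeping all lay near the background. With lists of equal length by score, 2 of 20 hypoxia regions of the 6 genes were not called with shZHX2 (14.9% of all hypoxia regions), and by fold 4 of 22 (17.4% of all). All shZHX2 samples were hypoxic, so a hairpin effect that needs hypoxia and one present at any oxygen level cannot be told apart.

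All regions of the 6 genes that differed came from the weaker part of their list. In normoxia 15 of the 27 regions were in the stronger 50% by score and each was called in hypoxia, and of the 12 weaker ones 7 were not. In hypoxia the 14 stronger regions were each called in both other lists, and of the 9 weaker ones 3 were not called in normoxia and 5 not with shZHX2. Among all regions of the weaker 50%, 40.6% of normoxia regions were not called in hypoxia, 12.8% of hypoxia regions not in normoxia, and 48.0% of hypoxia regions not with shZHX2. In the stronger 50% these shares were 0.602%, 0.116% and 2.11%. When the 3 lists were trimmed to equal length, 2 of 5 PDK1 hypoxia regions were called in neither other list with trimming by score, and 3 of 6 with trimming by fold. The share of all hypoxia regions called in neither other list is not given for trimmed lists. By score, 10.7% of all were not called in normoxia and 14.9% not with shZHX2, and by fold 12.4% and 17.4%. PDK1 was picked for this count, so these values are a description.

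**Figure D4:**
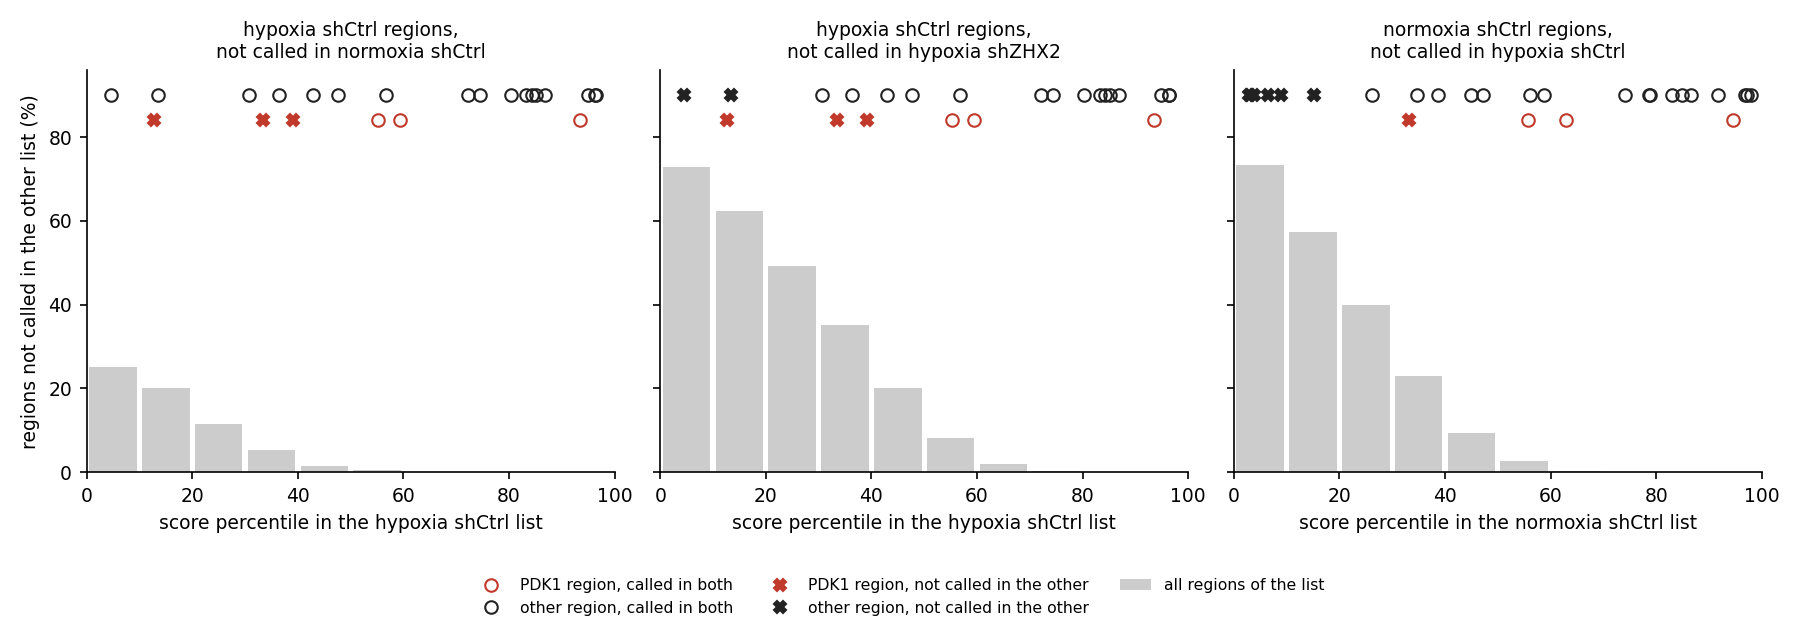
Grey bars give the share of all regions of a list that another list does not call, by score decile of the first list; symbols above, set at arbitrary height, mark the score percentile of the regions of PDK1 (red) and of the other 5 genes (black), open where both lists call the region and crossed where the other list does not. The 3 crossed PDK1 regions sit at percentiles 12.7, 33.4 and 39.1 of the hypoxia list, and no region of the 6 genes above percentile 50 is crossed.

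The 18 regions called in all lists spanned a wide range of fold. In normoxia they ran from 3.14 inside PDK2 to 10.1 at the start of PDK3, in hypoxia from 3.31 to 9.80 at the same regions, and with shZHX2 from 2.86 inside PDK2 to 10.4 at the distal PDP1 region. The median fold of a whole list was 4.13 in normoxia, 4.26 in hypoxia and 4.79 with shZHX2. The gene-end regions of the 6 genes lay above these medians in every list, PDP1 being lowest at 5.64, 5.35 and 5.20. The medians cover regions at any place. Folds at the gene ends of other genes were not compared, so this is not read as a trait of the family. A fold is not comparable between lists without their depth, so no change is read from it.

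**Figure D5:**
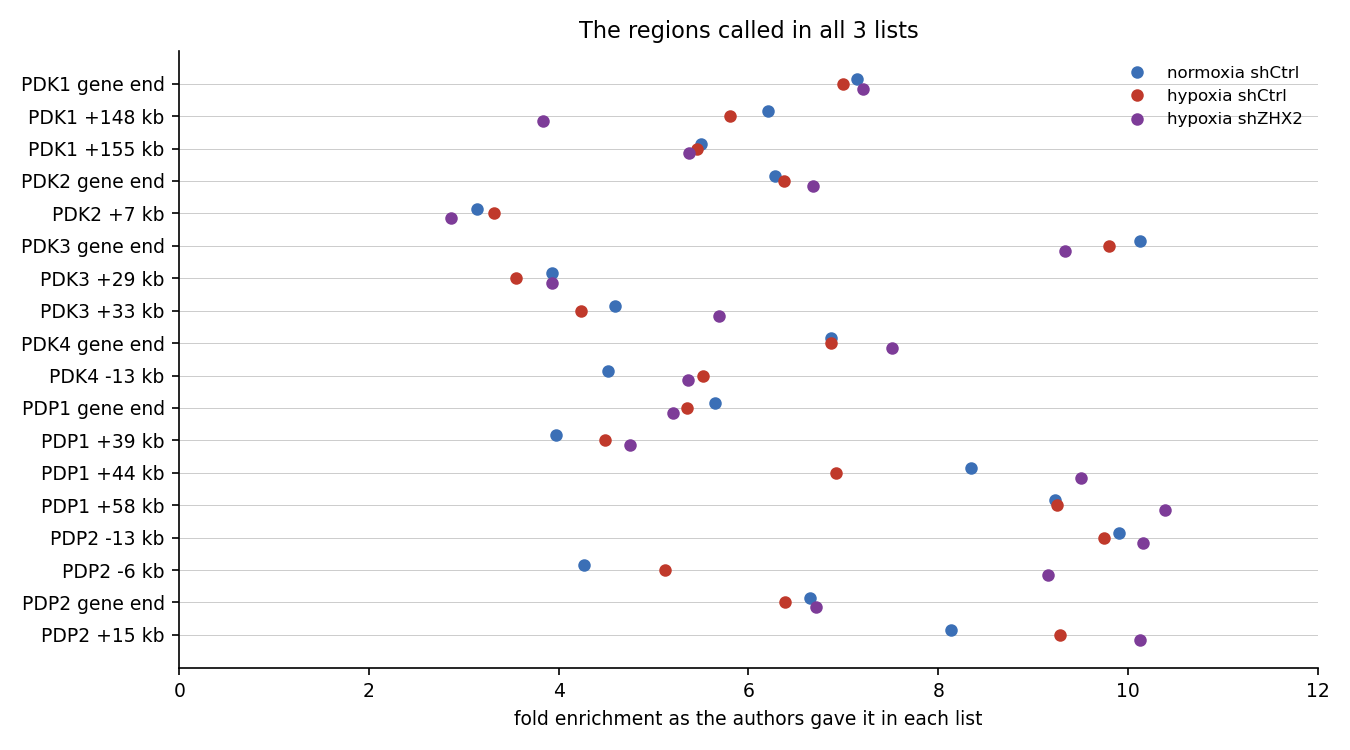
Fold enrichment as the authors gave it in each list for the 18 regions of the family called in all 3 lists, each row a region named by its gene and by its place, the gene end or the distance of its centre from the start. Gene-end regions have folds of 5.20 to 10.1, and the PDK1 region 148 kb away shows 6.21, 5.81 and 3.83.

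The other genes of pyruvate handling were read from a list of 24. It held subunits and lipoylation enzymes of the complex, the phosphatase regulatory subunit PDPR, pyruvate carriers, pyruvate kinase (PKM) and pyruvate carboxylase (PC). It also held lactate dehydrogenases and carriers, and enzymes at the entry to the citric acid cycle. A gene end was called for 23 of the 24 in each list, LDHB, the heart-type lactate dehydrogenase subunit, being the exception. Among all protein-coding genes the shares were 74.2% in normoxia, 72.3% in hypoxia and 70.0% with shZHX2. Of the 74 hypoxia regions of the 24 genes, 4 were called in neither other list (5.41%, against 5.49% of all hypoxia regions). These were 1 each at PDHX, the E3-binding subunit, PKM, the pyruvate kinase of most tissues, SLC16A3, a lactate exporter that hypoxia induces, and OGDH, the E1 subunit of the related oxoglutarate complex. Their folds were 2.71, 3.15, 1.98 and 2.90, and their score percentiles 1.35, 17.6, 19.1 and 5.47. None of the 24 had more than 1 such region. PDK1 was picked for having 3, so no comparison with these genes is drawn.

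In the same list, 14 of 83 normoxia regions were not called in hypoxia (16.9%), 5 of 74 hypoxia regions were not called in normoxia (6.76%), 11 of 74 were not called with shZHX2 (14.9%), and 4 of 67 shZHX2 regions were not called in hypoxia with shCtrl (5.97%). The shares over all regions were 20.6%, 6.44%, 25.0% and 7.11%. The subunit genes of the complex are named for their role and after their values were seen. PDHA1, PDHB, DLAT and DLD had 2, 2, 1 and 3 regions in normoxia, all called in hypoxia, and 1 hypoxia region of PDHA1 was not called with shZHX2. Of the 3 normoxia regions of PDHX, 1 was not called in hypoxia, and of its 3 hypoxia regions 2 were not called with shZHX2.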

How the data were processed

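The 9 samples were grouped by their labels into 3 groups of 3. For each group 1 list of regions without a header was analysed, in a broad-peak layout of 9 columns, so grouped values carry no SD. The submitters' processing notes list FastQC, Bowtie2, SAMtools and MACS2, and the build hg38; versions are not given. How samples were combined, and whether reads were shifted for the transposase, is likewise not stated. Each region carries the authors' score, their fold enrichment over local background, and the deposited −log10 values of p and q. In nearly every region the score equals the whole part of 10 times the q column, and the p column exceeds 10 in each.

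An overlap of 1 bp or more made a region shared. Genes came from a RefSeq table of GRCh38.p14, which shares coordinates with hg38 and gives spans without exons. Ties between spans went to the nearer end. All 6 members matched by symbol, and annotated starts were matched for 5. "From score" sums, over a gene's regions, the share of its list not called in the other list at that score decile. No test was run, as each group has 1 list. The functions were tested on simulated regions. All 6 members and pathway genes with a region called in hypoxia shCtrl alone or with no called or changing gene end were named, as were up to 10 genes with at least as many such regions as PDK1. Members and lists were chosen with earlier results of these data known. Python 3.11.15, pandas 2.3.3 and scipy 1.17.1 were used.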

Additional observations from a re-analysis of the deposited data

How the results depend on the processing

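Over 5 counts and their alternatives, 31 of 50 values stayed within 1.5 times the reported count, and the others were as follows. In the stronger 50% of each list all 5 counts were 0. By nearest annotated start, the PDK1 regions called in hypoxia shCtrl alone were 0, in place of 3. The hypoxia regions of the 6 genes not called in normoxia were 0 of 14, in place of 3 of 23. By the same rule, the hypoxia regions not called with shZHX2 were 2 of 14, in place of 5 of 23. The shZHX2 regions not called in hypoxia shCtrl were 0 of 12, in place of 1 of 19. Starts of noncoding genes compete in that rule, and the region over the PDK1 start also holds a start of PDK1-AS1 and was given to it, so the 0 for PDK1 is of 0 regions. An alternative chosen after seeing the data, with starts of protein-coding genes alone and ties by the start nearest to the centre, gave 0 of 1 for PDK1. For the 6 genes it gave 1 of 22 hypoxia regions not called in normoxia, 3 of 22 not called with shZHX2, and 0 of 19 shZHX2 regions not called in hypoxia shCtrl. PDP1 has no start in the table used and drops out under both rules. Normoxia regions not called in hypoxia, 7 of 27 as reported, were 3 of 20 with lists of equal length by score and 2 of 20 by fold. They were 4 of 11 when noncoding genes compete for regions. Under that rule the PDK1 region called in normoxia alone falls to PDK1-AS1. PDK1-AS1 also takes the region over the PDK1 start, which all lists call. Hypoxia regions not called with shZHX2, 5 of 23 as reported, were 2 of 20 with equal length by score, 3 of 18 within 20 kb, and 3 of 10 when noncoding genes compete. The 3 PDK1 regions stayed under both other overlap rules, with equal length by fold, within 20 kb, by nearer gene end and with noncoding genes, and 2 stayed with equal length by score. The alternatives vary the assignment, the overlap, the strength of regions and the length of the lists, and other causes were not tested. No paired analysis was possible because each group was analysed as 1 list with no values per replicate, and for the same reason no replicate could be left out. The read depth behind the lists is unknown, so no limit of detection is given.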

Other observations

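Some regions of the family that all lists call differed in extent. The PDP2 region 5444 bp before the start in normoxia was 2059 bp wide there, with a fold of 4.27. It was 1924 bp with a fold of 5.12 in hypoxia and 532 bp with a fold of 9.15 with shZHX2. The PDK3 region centred 29 kb from the start was 995, 881 and 319 bp wide in normoxia, hypoxia and with shZHX2. The PDK4 region before the start was 1177 and 1135 bp wide in normoxia and with shZHX2, and 449 bp in hypoxia with shCtrl. In a list, 1 call of the authors covers each of these places, and no test of the extents was possible.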
